A study of Mus musculus with 14 samples.

Results

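The genes described here are antiviral effectors, sensors and transcription factors that interferon induces, without the MHC genes and the GTPases of the Gbp and Irg families. The set was named by symbol and 39 of its 40 members were found, through their Entrez numbers, among the 21212 probe sets of the array. Isg15 was matched to no probe set. The levels come from whole lungs of mice at postnatal day 6 on the Affymetrix mouse Gene ST array, as log2 values in which 1 unit is a doubling, and all mice are labelled C57BL/6J. The groups were 4 lungs labelled Atxn1L -/- (knockout of ataxin-1-like), 4 WT lungs that served as their controls, 3 lungs labelled Atxn1 -/- (knockout of ataxin-1) and 3 WT lungs that served as the controls of these. The mice came from intercrosses of heterozygotes. Knockouts and WT mice are described as collected in pairs, but no label says which arrays form a pair. The alleles are carried by the whole animal, and the labels give neither sex nor litter, nor treatment or infection. Each knockout was compared only with its own wild types, because the 8 arrays of the Atxn1l set and the 6 arrays of the Atxn1 set were normalized apart.

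Cells release type I and type III interferons when they sense foreign nucleic acid. Receptor-bound kinases then phosphorylate Stat2, which acts with Irf9 in a complex that binds the interferon-stimulated response element (ISRE) in front of its target genes. Type II interferon acts at another element, the gamma-activated site (GAS). The induced proteins degrade viral RNA, block its translation, hold back budding particles or sense more nucleic acid, and some of them damp the response. In the lung both epithelial cells and leukocytes express these genes.

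Promoters are shown because the members share an upstream signal whose binding site is known. RefSeq windows of the mouse assembly GRCm38.p6, from 250 bases before to 50 bases after the annotated transcript start, were found for 28 of the 39 measured members. The core of the ISRE, spelled GAAA, then any 2 bases, then GAAA, and searched on both strands with overlapping matches allowed, occurred in a window of 16 of these 28 members (57.1%), and in a window of 4.0% of the 27025 genes of the table. The GAS letters TTCNNNGAA were found in 8 of the 28 (28.6%) and in 9.6% of all genes. The windows printed are those of members among the 8 of smallest p in the Atxn1l knockout that hold an ISRE core. They lie at chr1:173912997-173913296 for Ifi211, chr1:174031706-174032005 for Ifi205, chr5:120907476-120907775 for Oas1a and chr5:120777610-120777909 for Oas3, all on the minus strand. Each runs 5′ to 3′ in the direction of transcription, and capitals mark the ISRE core.
Ifi211: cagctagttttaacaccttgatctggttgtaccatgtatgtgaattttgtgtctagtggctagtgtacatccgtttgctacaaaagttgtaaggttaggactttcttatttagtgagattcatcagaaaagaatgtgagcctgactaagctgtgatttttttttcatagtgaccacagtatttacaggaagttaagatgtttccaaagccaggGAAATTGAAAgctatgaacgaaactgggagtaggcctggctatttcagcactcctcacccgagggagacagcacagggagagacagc
Ifi205: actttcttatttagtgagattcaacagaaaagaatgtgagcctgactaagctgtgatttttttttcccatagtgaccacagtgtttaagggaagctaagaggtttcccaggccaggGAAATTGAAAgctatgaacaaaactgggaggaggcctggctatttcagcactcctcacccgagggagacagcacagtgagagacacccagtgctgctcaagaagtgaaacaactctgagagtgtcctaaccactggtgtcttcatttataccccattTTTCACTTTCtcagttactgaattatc
Oas1a: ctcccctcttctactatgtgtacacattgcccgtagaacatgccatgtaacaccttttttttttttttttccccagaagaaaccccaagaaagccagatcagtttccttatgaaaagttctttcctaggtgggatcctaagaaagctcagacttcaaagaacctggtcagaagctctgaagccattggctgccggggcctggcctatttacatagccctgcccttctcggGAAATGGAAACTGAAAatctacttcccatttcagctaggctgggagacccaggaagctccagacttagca
Oas3: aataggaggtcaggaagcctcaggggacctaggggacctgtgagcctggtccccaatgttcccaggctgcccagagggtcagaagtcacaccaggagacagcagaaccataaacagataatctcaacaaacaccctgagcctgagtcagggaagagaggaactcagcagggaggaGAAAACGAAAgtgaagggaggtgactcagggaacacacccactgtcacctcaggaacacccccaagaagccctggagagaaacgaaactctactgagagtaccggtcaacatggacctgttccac
The core began 37 bases before the start in Ifi211 and 75 bases before it in Oas3. In Oas1a a pair of overlapping cores began 20 and 14 bases before the start. In Ifi205 a core began 134 bases before the start, and a core on the other strand began at base 24 of the transcript. With the windows of Ifi211 and Ifi205 set on their upstream core, 148 of 203 bases were identical (72.9%), with 45 identical bases in a row. The Ifi204, Ifi205, Ifi211 and Ifi203 genes are close paralogs in 1 cluster, as are those of the Oas1 group, and how far probes of 1 gene read RNA of another was not tested. Members with the core had a median log2 change of 0.30 in the Atxn1l knockout, and members with a window but no core had 0.30 as well. A match to these letters is a description of the window and shows no binding.

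The arrays read as lung: Sftpc, the surfactant protein of alveolar type 2 cells, lay between 13.87 and 14.42, and the mean of 10 alveolar epithelial markers between 12.23 and 12.31 on Atxn1l knockout arrays, against 12.22 and 12.33 on their wild types. Atxn1l itself had log2 levels of 6.68, 6.93, 7.05 and 6.79 in its knockouts, against 9.59, 9.43, 9.29 and 9.47 in the wild types. Atxn1 averaged 11.02 ± 0.02 in Atxn1 knockouts and 11.01 ± 0.11 in WT lungs (SD, n = 3 each), so its probe set, which can lie outside the deleted part, does not check that genotype. Xist, the RNA that coats the inactive X in females, had low levels on Atxn1l knockout array 1, on arrays 1 and 2 of its wild types, on Atxn1 knockout array 1 and on arrays 1 and 2 of its wild types.

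In lungs without Atxn1l, 37 of 39 members had a higher mean log2 level than their wild types, as did 51.3% of all probe sets, with a median log2 change of 0.35, against 0.0026 over all probe sets. No single member passed limma's test (Benjamini-Hochberg adjusted p under 0.05 over all probe sets), a call made for 0.0424% of them, and the smallest adjusted p of a member was 0.192, for Ifi211. At an unadjusted p under 0.05, 26 members were higher and 0 lower, where 4.54% of all probe sets were higher and 3.95% lower. The knockout arrays lay above every wild type array in 6 members, a pattern of 2.76% of all probe sets. The 6 were Ifi211, Oas1a, Oas2, Oas3, Mx1 and Mx2. All of them but Ifi211 had wild type means, 5.42 to 7.70, below the median level of each wild type array, 8.44 to 8.48. In whole lung, more cells of a kind and more RNA per cell cannot be told apart.

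**Figure D1:**
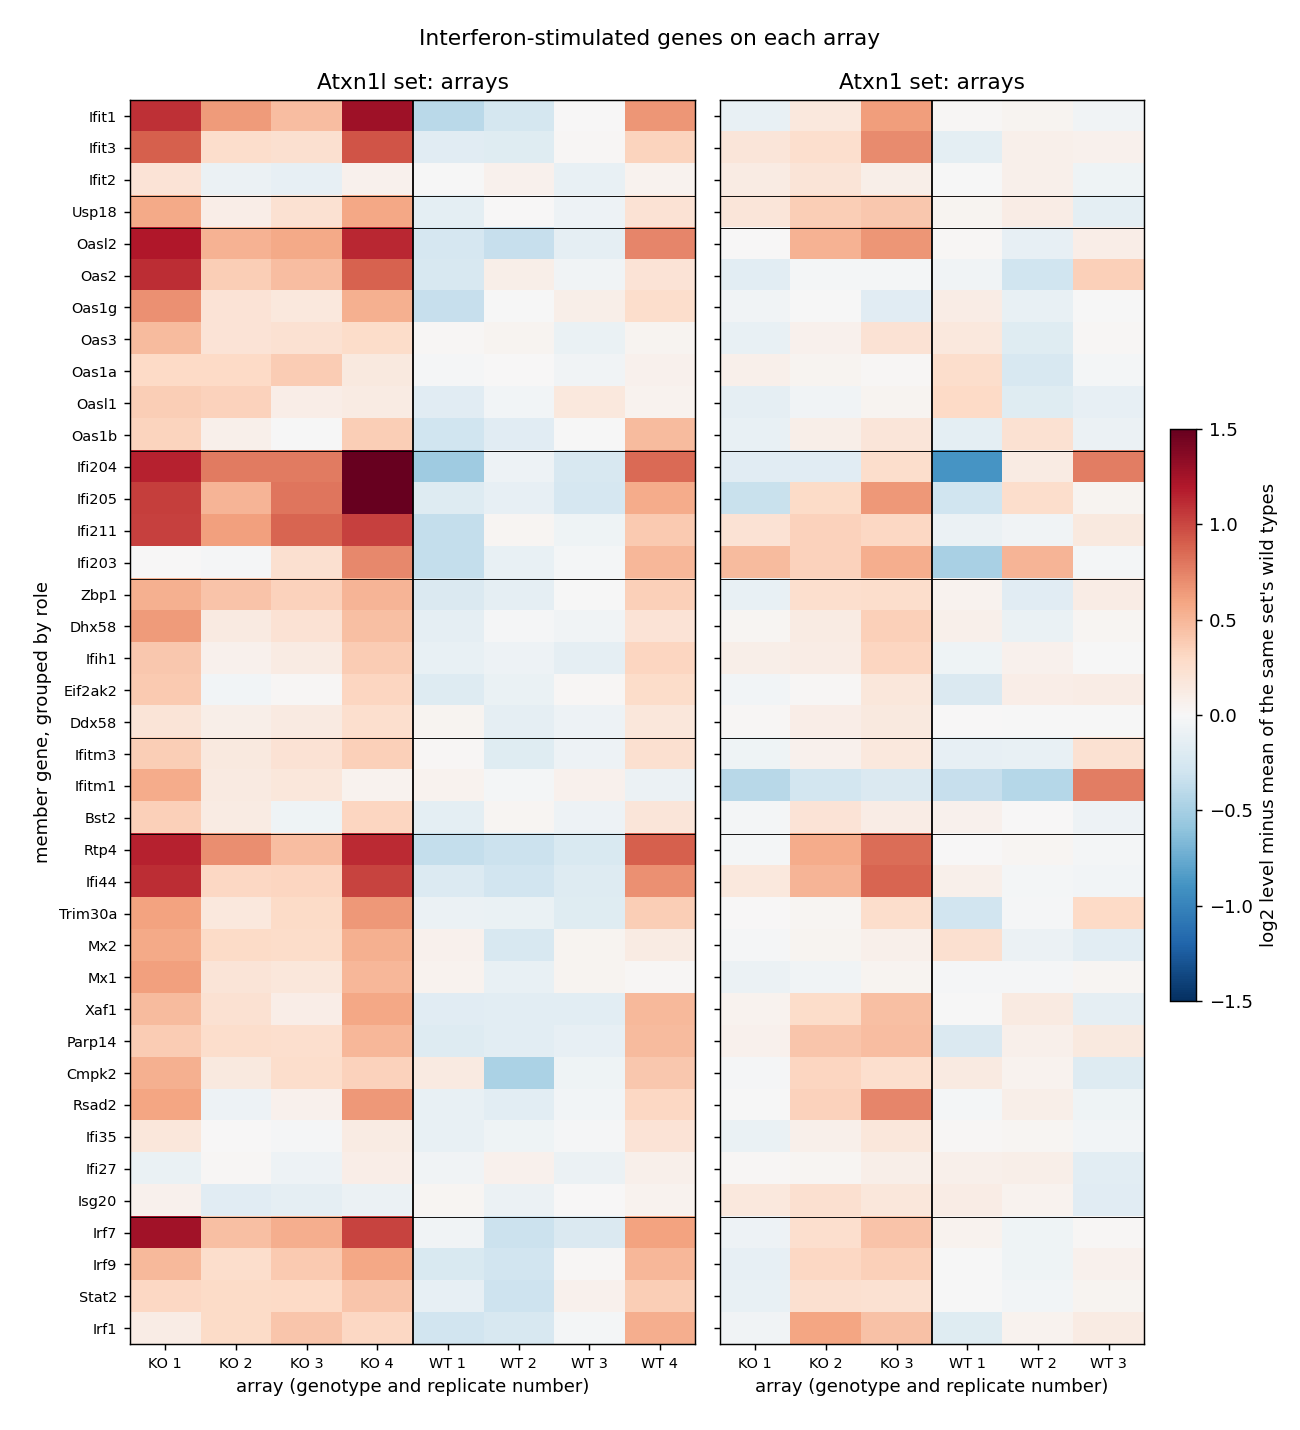
Log2 level of each of the 39 members (rows, grouped by role) on each array (columns), as the difference from the mean of the wild types of the same set, red for higher and blue for lower. In the Atxn1l set (left), knockout arrays 1 and 4 are red in most rows, knockout arrays 2 and 3 less so, and wild type array 4 is red where the other wild types are blue. In the Atxn1 set (right), knockout arrays 2 and 3 are redder than knockout array 1.

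The PYHIN family, which includes sensors of DNA, held the 3 largest changes of the set. Ifi211 had levels of 10.71, 10.31, 10.56 and 10.71 on the Atxn1l knockout arrays, against 9.34, 9.72, 9.62 and 10.08 on their wild types. All its knockout arrays lay above all its wild types. The log2 change was 0.88 (SE 0.15, limma adjusted p = 0.192, unadjusted p = 0.000131), a 1.85-fold difference. In a fit of all 14 arrays with a shared variance, its adjusted p was 0.0336. Ifi205 had 8.47, 7.93, 8.23 and 9.0 on the Atxn1l knockout arrays, against 7.24, 7.3, 7.17 and 7.99 on their wild types. Wild type array 4 lay just above the lowest knockout, and the other wild types lay below all knockouts. Its change was 0.98 (SE 0.23, limma adjusted p = 0.310, unadjusted p = 0.00177). Ifi204, a mouse DNA sensor of the same cluster, had 6.41, 6.04, 6.04 and 6.87 on the Atxn1l knockout arrays, against 4.73, 5.18, 5.02 and 6.11 on their wild types, again with wild type array 4 inside the knockout range. It had the largest change of any member, 1.08 (SE 0.28, limma adjusted p = 0.345, unadjusted p = 0.00328), a 2.11-fold difference. Its wild type mean of 5.26 was the lowest of the members, where the median level of a wild type array was 8.44 to 8.48. Ifi203 had a change of 0.24 (SE 0.20) and its groups overlapped.

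The OAS enzymes make oligoadenylates, a second messenger of the antiviral response, on double-stranded RNA. All 7 had log2 changes above 0, as did 51.3% of all probe sets, between 0.20 and 0.86 with a median of 0.30. At an unadjusted p under 0.05, 6 were higher, where 4.54% of all probe sets were. Oas2 had levels of 8.48, 7.75, 7.83 and 8.26 on the Atxn1l knockout arrays, against 7.14, 7.46, 7.32 and 7.58 on their wild types. The groups did not overlap, and knockout arrays 1 and 4 were the highest. The change was 0.71 (SE 0.16, limma adjusted p = 0.282, unadjusted p = 0.00133). Oas1a had 8.0, 8.0, 8.08 and 7.84 on the Atxn1l knockout arrays, against 7.68, 7.71, 7.64 and 7.76 on their wild types, a smaller but tighter difference of 0.28 (SE 0.06, limma adjusted p = 0.251, unadjusted p = 0.000736). Oas3 had 7.98, 7.72, 7.74 and 7.78 on the Atxn1l knockout arrays, against 7.53, 7.55, 7.41 and 7.55 on their wild types, with a change of 0.30 (SE 0.07, limma adjusted p = 0.287, unadjusted p = 0.00138). Among the others, Oasl2 had 0.86 (SE 0.24), Oas1g 0.40 (SE 0.15) and Oasl1, which in mice restrains translation of Irf7 mRNA, 0.23 (SE 0.09). Oas1b, whose gene carries a premature stop in C57BL/6 and most other laboratory strains, had 0.20 (SE 0.15) and was the 1 of the 7 with an unadjusted p above 0.05.

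The IFIT proteins bind viral RNA or its translation factors. Ifit1, which binds RNA without the cap methylation of host mRNA, had 8.98, 8.52, 8.35 and 9.16 on the Atxn1l knockout arrays, against 7.47, 7.62, 7.89 and 8.55 on their wild types. Wild type array 4 lay within the knockouts, and the other 3 lay below them. The change was 0.87 (SE 0.24, limma adjusted p = 0.366, unadjusted p = 0.00478). Ifit3, its partner, had a change of 0.59 (SE 0.18). Ifit2 had 0.01 (SE 0.08), with 9.12 ± 0.15 in Atxn1l knockouts and 9.11 ± 0.08 in WT lungs (SD, n = 4 each). Usp18, which removes the ISG15 modifier from proteins and damps the interferon receptor, had 0.37 (SE 0.12).

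Of the sensors, Zbp1, which binds left-handed nucleic acid and can start necroptosis, had levels of 8.45, 8.34, 8.26 and 8.42 on the Atxn1l knockout arrays, against 7.69, 7.78, 7.91 and 8.27 on their wild types. Its knockouts were even, and the lowest of them was just under wild type array 4. The change was 0.45 (SE 0.11, limma adjusted p = 0.327, unadjusted p = 0.00231). The RNA helicases Dhx58, Ifih1 and Ddx58, of which Ddx58 is also called RIG-I, had 0.36 (SE 0.11), 0.24 (SE 0.11) and 0.17 (SE 0.07). Eif2ak2, the kinase that stops translation on sensing double-stranded RNA, had 0.17 (SE 0.12). All 5 of this group were above 0, with a median of 0.24, and 3 were higher at an unadjusted p under 0.05. Of all probe sets, 51.3% were above 0 and 4.54% higher by that rule.

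All 4 transcription factors were above 0, as were 51.3% of all probe sets, with a median of 0.38. At an unadjusted p under 0.05, 3 of them were higher, where 4.54% of all probe sets were. Irf7, which drives transcription of interferon alpha genes, had 9.65, 8.84, 8.94 and 9.4 on the Atxn1l knockout arrays, against 8.34, 8.07, 8.18 and 8.99 on their wild types, a change of 0.82 (SE 0.22). Irf9 and Stat2, partners in the ISRE-binding complex, had 0.43 (SE 0.15) and 0.33 (SE 0.12). Irf1 had 0.28 (SE 0.16), with wild type array 4 above all 4 knockouts. The membrane proteins Ifitm3, which blocks fusion of viruses, Ifitm1 and Bst2, which tethers budding particles, had 0.27, 0.23 and 0.19.

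The other 12 effectors had log2 changes from -0.08 to 0.86, with a median of 0.35. At an unadjusted p under 0.05, 6 were higher, where 4.54% of all probe sets were. Mx2, a dynamin-like GTPase found in the cytoplasm in mice, had 6.46, 6.18, 6.16 and 6.43 on the Atxn1l knockout arrays, against 5.96, 5.66, 5.94 and 6.02 on their wild types. Its groups did not overlap, and the change was 0.41 (SE 0.10, limma adjusted p = 0.301, unadjusted p = 0.00158). Mx1, its nuclear relative, which is defective in C57BL/6 and most laboratory strains, had a change of 0.37 (SE 0.10) without overlap. Rtp4 and Ifi44 had 0.86 (SE 0.27) and 0.69 (SE 0.25), both with wild type array 4 within the knockout range. Trim30a, which restrains NF-kB signalling in mice, had 0.42, and Parp14, an ADP-ribosyltransferase, 0.35. Xaf1 had 0.35, Cmpk2, a mitochondrial nucleotide kinase, 0.32, Rsad2, the radical enzyme viperin, 0.31, and Ifi35 0.07. The 2 members below 0 were Isg20, an RNA exonuclease, with -0.08 (SE 0.06), and Ifi27, with -0.01 (SE 0.06).

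**Figure D2:**
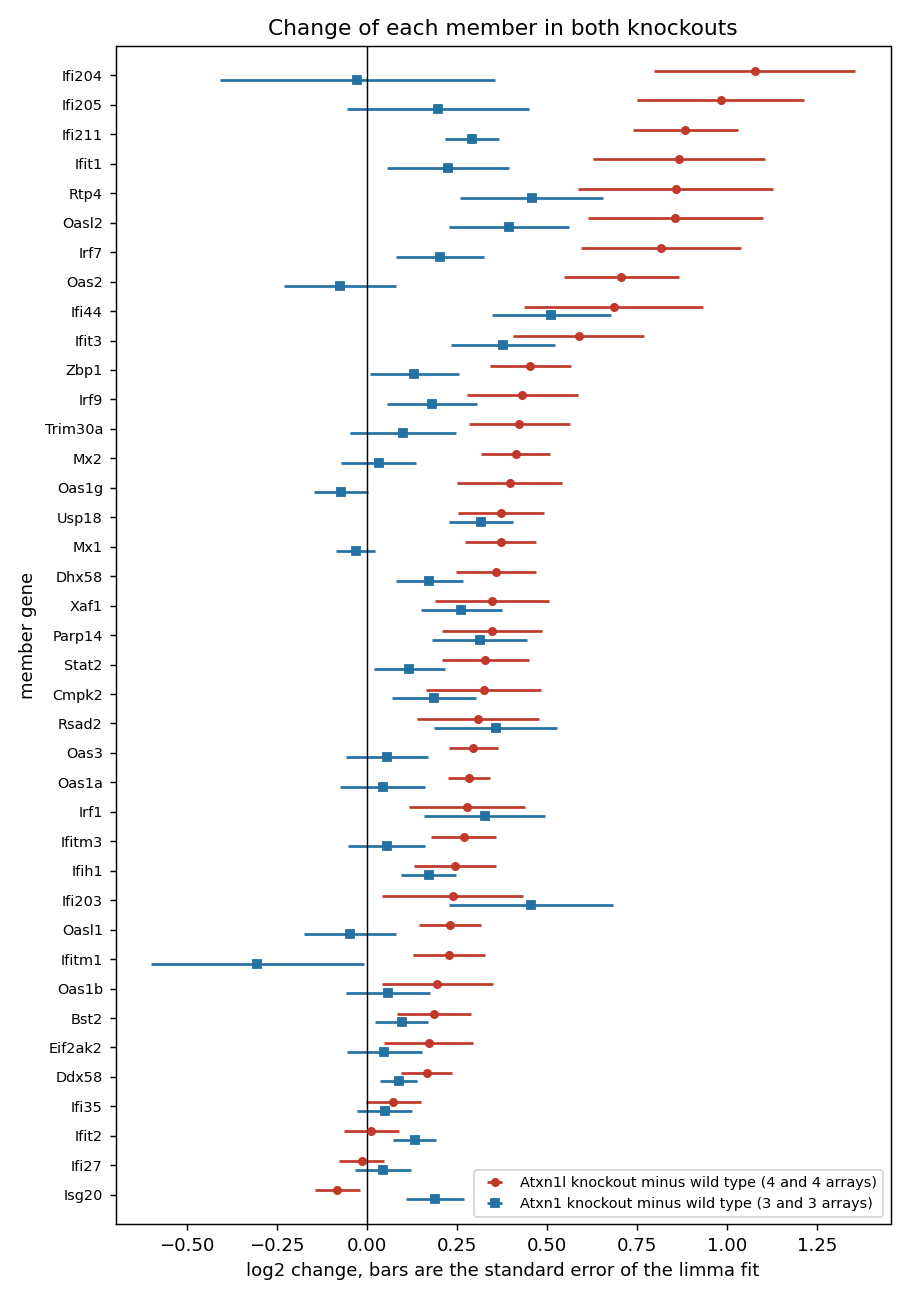
Log2 change of each member (rows) with the standard error of the limma fit, for the Atxn1l knockout (red circles, 4 against 4 arrays) and the Atxn1 knockout (blue squares, 3 against 3 arrays). Most red circles lie right of the blue squares, and Ifi204, Ifi205 and Ifi211 lie farthest right. For 6 members, Isg20 and Ifi203 among them, the blue square lies right of the red circle.

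The members moved together from array to array within groups as well. The mean log2 level over the 39 members was 9.24, 8.90, 8.93 and 9.23 on Atxn1l knockout arrays 1 to 4, against 8.51, 8.54, 8.60 and 9.0 on wild type arrays 1 to 4. Knockout arrays 1 and 4 were the highest, and wild type array 4 lay above knockout arrays 2 and 3. Knockout array 1 had the top level of the set in 21 members and knockout array 4 in 14. Among the wild types, array 4 was the highest in 35 of 39 members, against 18.1% of all probe sets. The median SD of a member between arrays was 0.20 over the knockouts and 0.24 over the wild types, against 0.08 and 0.09 over all probe sets.

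The size of the difference depended on single arrays, most on wild type array 4. Without it the members' median was 0.45, 34 members had an unadjusted p under 0.05 (3.64% of all probe sets were higher by that rule) and 4 passed the adjusted threshold, a call made for 0.118% of probe sets. These were Ifi211 (1.02, limma adjusted p = 0.0266), Zbp1 (0.57, adjusted p = 0.028), Rtp4 (1.16, adjusted p = 0.0408) and Parp14 (0.51, adjusted p = 0.0437). Without wild type array 1 the median was 0.29 and 18 members had such a p, as did 9.08% of all probe sets in either direction. Without wild type array 2 the median was 0.30, with 19 members and 7.67% of all probe sets. Without knockout array 1 the median was 0.30, and 20 members had an unadjusted p under 0.05 upward and Isg20 downward, where 7.94% of all probe sets had such a p in either direction. Among arrays with high Xist, 3 knockouts and 2 wild types, the median was 0.16 with 34 of 39 members above 0. Among those with low Xist, 1 knockout and 2 wild types, it was 0.64 with 38 above 0. With the Xist level as a covariate it was 0.31.

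**Figure D3:**
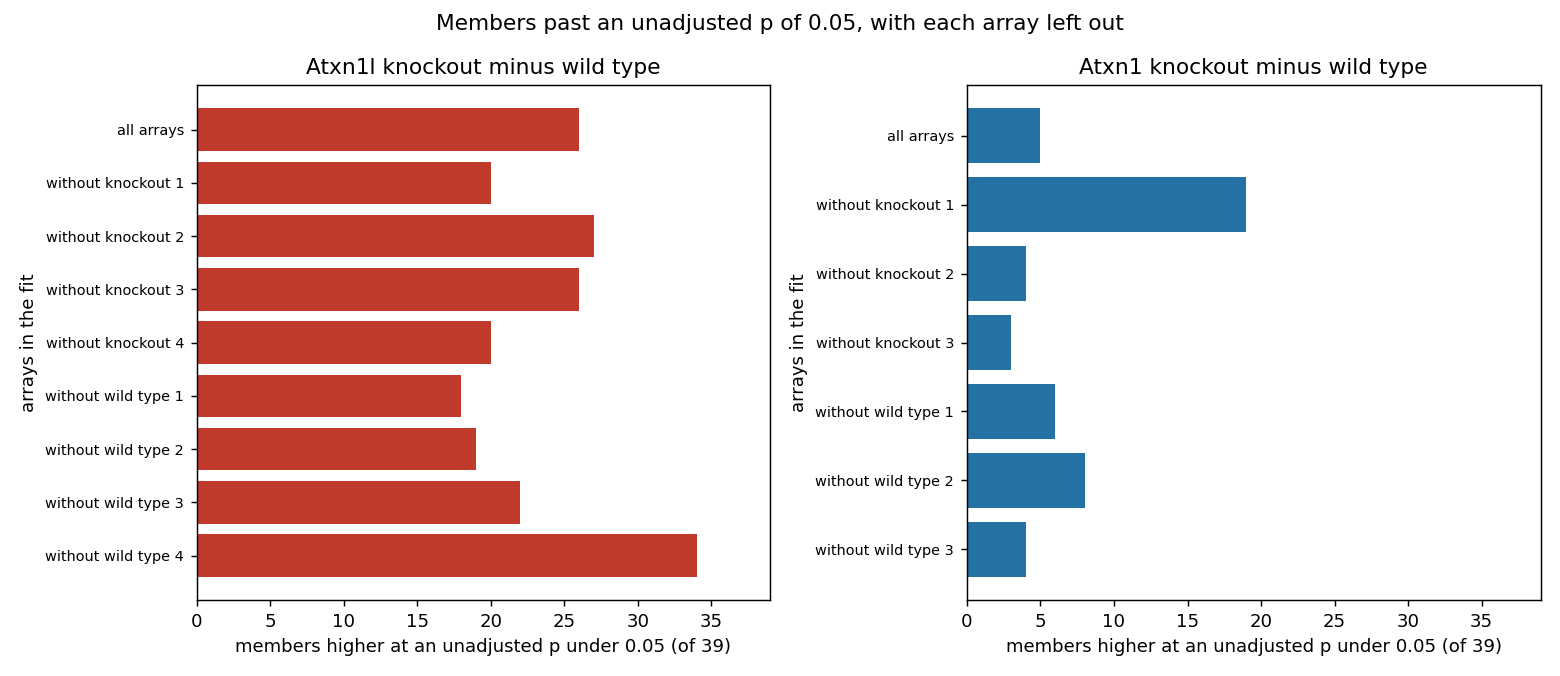
Number of members, of 39, higher in the knockout at an unadjusted p under 0.05 (bars), with all arrays and with each array left out in turn, for the Atxn1l (left) and Atxn1 (right) knockouts. The Atxn1l count lies between 18 and 34 and is highest without wild type array 4, and the Atxn1 count lies between 3 and 19 and is highest without knockout array 1.

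Leukocyte markers moved with the members in part. The mean of 11 macrophage and monocyte markers was 9.66, 9.07, 9.14 and 9.16 on the Atxn1l knockout arrays, against 8.67, 8.72, 8.63 and 8.63 on the wild types. Of these markers 11 of 11 were above 0, and 2, Chil3 and Msr1, passed the adjusted threshold. Of all probe sets, 51.3% were above 0 and 0.0424% passed that threshold. Wild type array 4 had a macrophage mean inside the range of the other wild types, while its members' mean was above all of theirs. The mean of 12 neutrophil markers was 10.27, 9.01, 8.82 and 8.67 on the knockout arrays, against 8.58, 8.82, 8.19 and 8.12 on the wild types, with 12 of 12 above 0. Knockout arrays 1 and 4, whose members' means were alike, had the highest and the lowest neutrophil mean of the knockouts. Plasmacytoid dendritic cells release interferon alpha, and their 7 markers had a mean of 7.76 to 7.90 in Atxn1l knockouts and 7.76 to 7.88 in WT lungs, with 3 of 7 above 0. For 11 markers of T, NK and B cells the means were 7.84 to 8.12 and 7.74 to 7.98, with 9 of 11 above 0. None of these markers was at 0, since the array gives a level for every probe set. The part of macrophages and neutrophils in the members' levels was not tested.

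**Figure D4:**
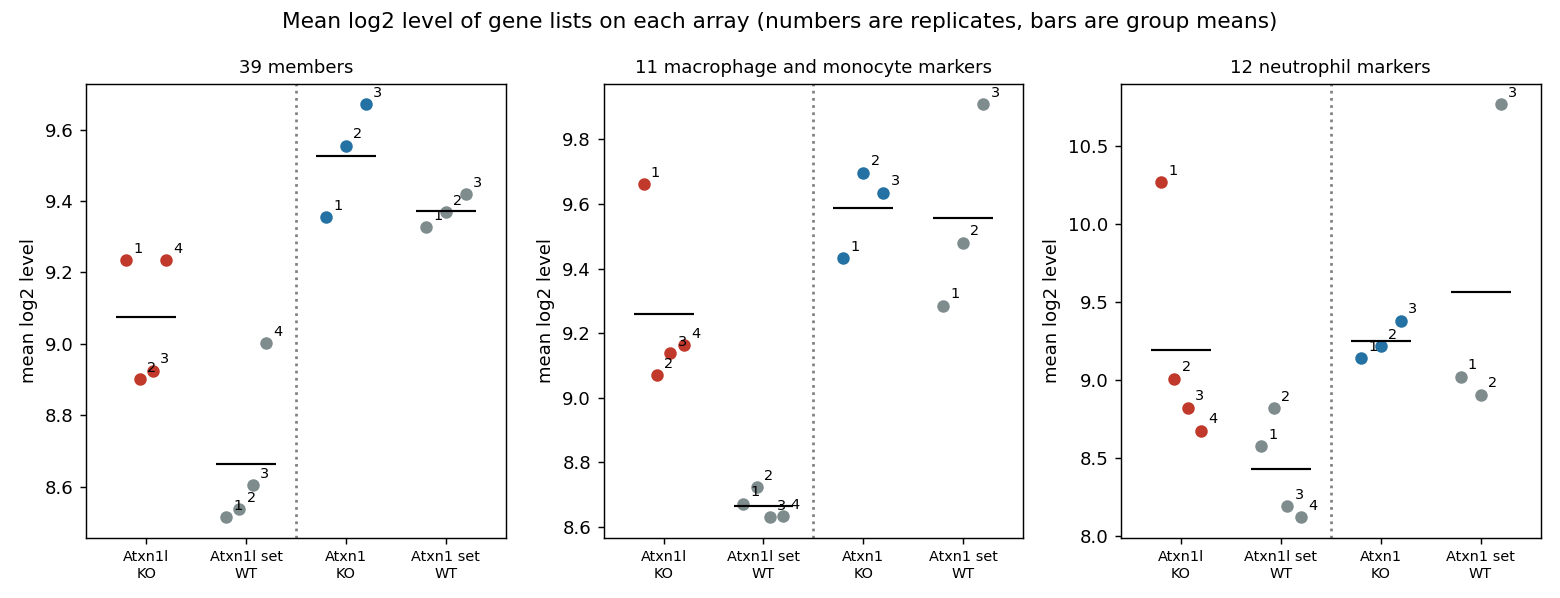
Mean log2 level of the 39 members, of 11 macrophage and monocyte markers and of 12 neutrophil markers on each array (points, numbered by replicate; bars are group means). The sets left and right of the dotted line were normalized apart. Wild type array 4 of the Atxn1l set is high for the members only, and Atxn1l knockout array 1 and wild type array 3 of the Atxn1 set are high for neutrophil markers.

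In lungs without Atxn1, 33 of 39 members had a higher mean than their wild types, as did 47.3% of all probe sets, with a median log2 change of 0.13, against -0.0038 over all probe sets. limma called 0 members and 0% of all probe sets, with a smallest adjusted p of 0.9999. At an unadjusted p under 0.05, 5 members were higher and 0 lower, where 0.75% of probe sets were higher and 0.467% lower. These 5 were Ifi211, Usp18, Ifi44, Ifit3 and Oasl2, and all 5 also had an unadjusted p under 0.05 in the Atxn1l knockout. The 3 knockout arrays lay above every wild type in 8 members, against 2.85% of all probe sets.

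Ifi44, induced by type I interferon, had levels of 9.3, 9.66 and 10.01 on the Atxn1 knockout arrays, against 9.22, 9.11 and 9.1 on their wild types. The groups did not overlap, with knockout array 1 just above the wild types, and the log2 change was 0.51 (SE 0.17, limma unadjusted p = 0.0174). Usp18 had 9.84, 10.03 and 10.07 on the Atxn1 knockout arrays, against 9.7, 9.78 and 9.52 on their wild types, again without overlap, and a change of 0.32 (SE 0.09, limma unadjusted p = 0.00976). For Ifi211 the levels were 10.43, 10.56 and 10.52 on the Atxn1 knockout arrays, against 10.12, 10.16 and 10.35 on their wild types, and the change was 0.29 (SE 0.08, limma unadjusted p = 0.00646). Ifit3 had 9.72, 9.8 and 10.26 on the Atxn1 knockout arrays, against 9.4, 9.63 and 9.62 on their wild types. Its lowest knockout lay just above its highest wild type, and its change was 0.38 (SE 0.15, limma unadjusted p = 0.0352). Oasl2 had 9.93, 10.45 and 10.59 on the Atxn1 knockout arrays, against 9.95, 9.81 and 10.03 on their wild types, with knockout array 1 among the wild types, and a change of 0.39 (SE 0.17, limma unadjusted p = 0.0496).

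Parp14, Isg20 and Xaf1 came next by p. Parp14 had 9.55, 9.89 and 9.94 on the Atxn1 knockout arrays, against 9.26, 9.55 and 9.62 on their wild types, a change of 0.31 (SE 0.13). Isg20 had 11.73, 11.81 and 11.74 on the Atxn1 knockout arrays, against 11.68, 11.63 and 11.4 on their wild types, without overlap and with a change of 0.19 (SE 0.08). Xaf1, which promotes apoptosis, had 9.36, 9.57 and 9.75 on the Atxn1 knockout arrays, against 9.3, 9.43 and 9.17 on their wild types, a change of 0.26 (SE 0.11). Rtp4 had 9.33, 9.91 and 10.19 on the Atxn1 knockout arrays, against 9.35, 9.38 and 9.32 on their wild types: knockout arrays 2 and 3 were high and array 1 sat with the wild types, for a change of 0.46 (SE 0.20). Ifi203 had 10.27, 10.13 and 10.34 on the Atxn1 knockout arrays, against 9.31, 10.3 and 9.76 on their wild types. Wild type array 1 was the lowest by far, wild type array 2 lay among the knockouts, and the change was 0.46 (SE 0.23). The remaining non-overlapping members were Ddx58, Ifih1 and Ifit2, with 0.09, 0.17 and 0.13.

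By role, the medians in the Atxn1 knockout were 0.22 for 3 IFIT genes, 0.24 for 4 PYHIN genes, 0.19 for 4 transcription factors, 0.19 for 12 other effectors, 0.13 for 5 sensors, 0.05 for 3 membrane proteins and 0.04 for 7 OAS genes. Of the OAS genes 4 were above 0, as were 47.3% of all probe sets. The 6 members below 0 were Oas2 (-0.08), Oas1g (-0.07), Oasl1 (-0.05), Mx1 (-0.03), Ifi204 (-0.03) and Ifitm1 (-0.30). Ifitm1 had 11.15, 11.28 and 11.35 on the Atxn1 knockout arrays, against 11.22, 11.14 and 12.33 on their wild types. The value of wild type array 3 set its direction: without that array its change was 0.08, and that array's 12 neutrophil markers had a mean of 10.77, against 9.14 to 9.38 in the knockouts and 8.90 to 9.02 in the other wild types. Ifi204 had 0.35 and Oas2 0.10 without that array.

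**Figure D5:**
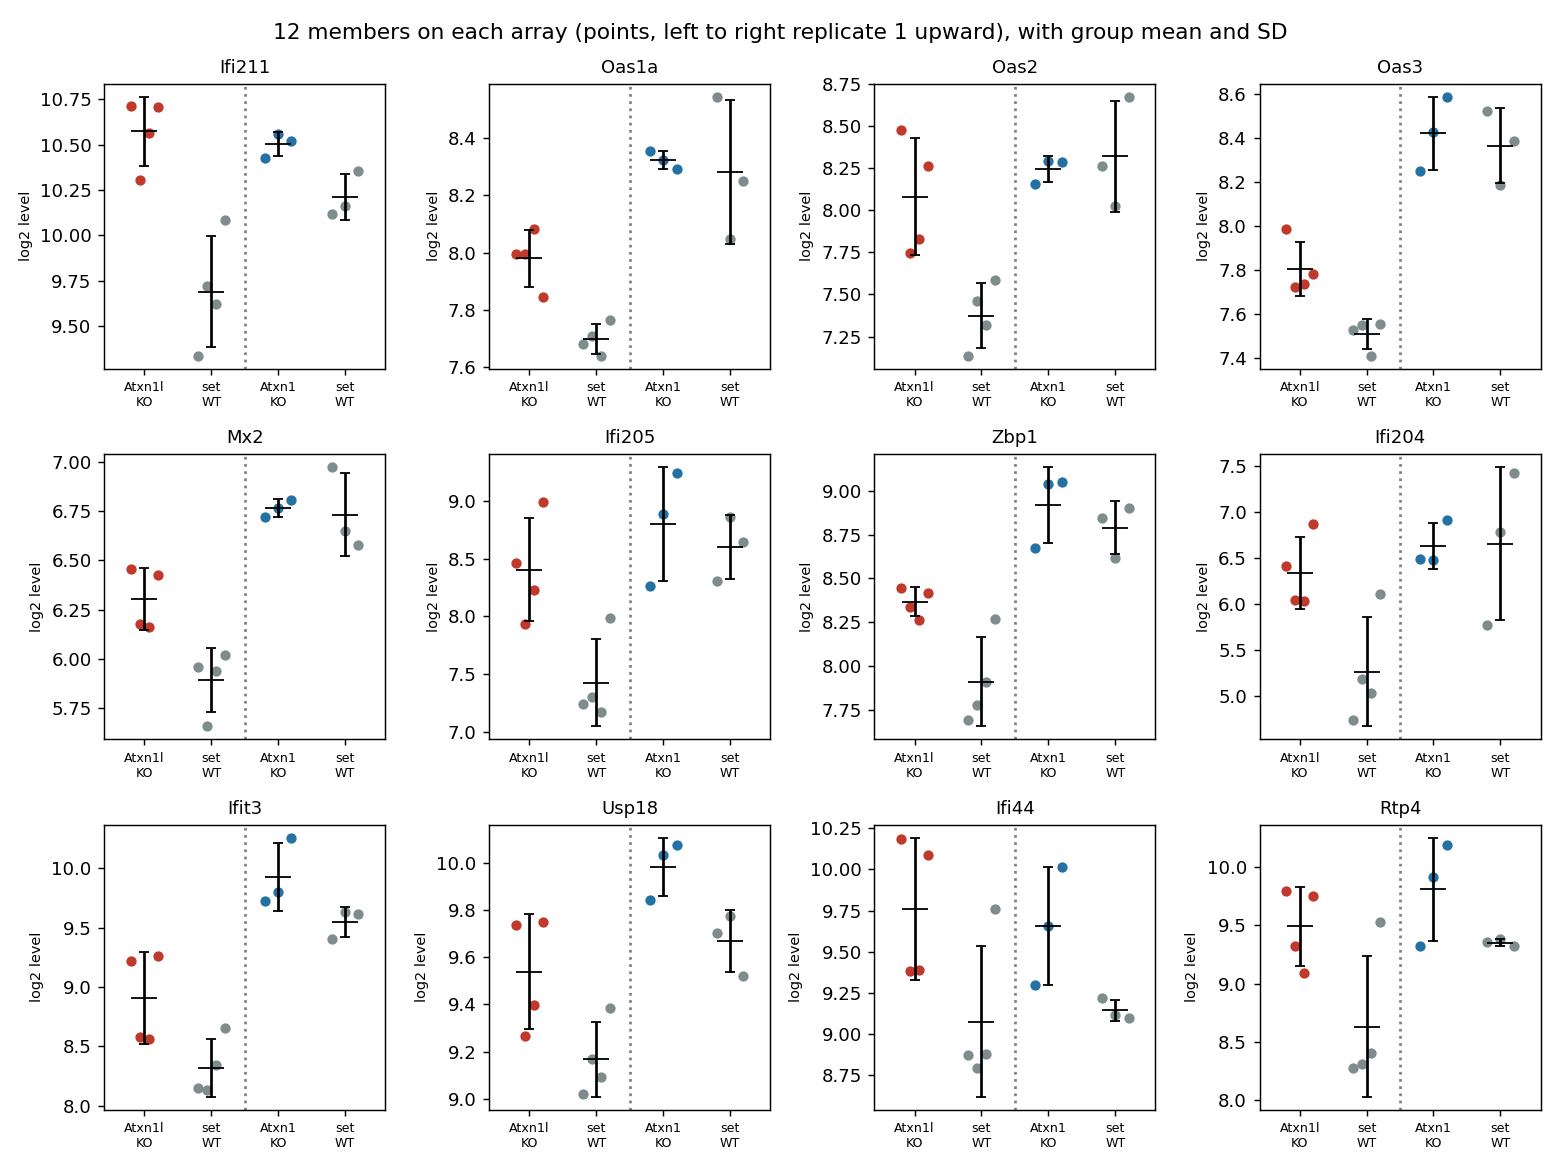
Log2 levels of 12 members on each array (points), with the mean and SD of each group, knockouts left of their wild types. The upper 8 panels are the members of smallest p in the Atxn1l knockout, and the lower 4 show Ifit3, Usp18, Ifi44 and Rtp4, where Atxn1 knockout arrays 2 and 3 also lie above their wild types.

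The mean over the 39 members was 9.36, 9.56 and 9.67 on Atxn1 knockout arrays 1 to 3, against 9.33, 9.37 and 9.42 on their wild types. Knockout array 1 lay within the wild types and was the lowest knockout in 34 members, and knockout array 3 was the highest knockout in 29. Without knockout array 1 the members' median was 0.21 and 19 had an unadjusted p under 0.05, as did 1.09% of all probe sets in either direction. Without knockout array 3 the median was 0.07 and 3 members had such a p, as did 0.721% of all probe sets. Among arrays with high Xist, 2 knockouts and 1 wild type, the median was 0.22. Among arrays with low Xist, 1 knockout and 2 wild types, it was -0.01, with 19 of 39 members above 0. With the Xist level as a covariate it was 0.084, against 0.13 without. Sex as read from Xist and the array of knockout replicate 1 cannot be told apart in this set.

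The contrast of both knockout effects, fitted on all 14 arrays, asks whether a member changed more in one knockout than in the other. No member passed after adjustment (smallest limma adjusted p = 0.9996), against 0.00943% of all probe sets. The change, taken with its sign, was higher in the Atxn1l knockout in 33 of 39 members and in 11359 of all 21212 probe sets. At an unadjusted p under 0.05, 6 members had the larger change in the Atxn1l knockout, where 1.74% of all probe sets did, and 1 member, Isg20, in the Atxn1 knockout, where 1.5% did. The difference between the effects was 0.78 (SE 0.25, limma unadjusted p = 0.00755) for Oas2, 0.40 (SE 0.13, limma unadjusted p = 0.00841) for Mx1, 0.59 (SE 0.20, limma unadjusted p = 0.0101) for Ifi211 and -0.27 (SE 0.10, limma unadjusted p = 0.0182) for Isg20. Oas2 had 8.16, 8.29 and 8.29 on the Atxn1 knockout arrays, against 8.26, 8.02 and 8.68 on their wild types, where wild type array 3 was the highest array. Mx1 had 6.03, 5.62, 5.6 and 5.92 on the Atxn1l knockout arrays, against 5.47, 5.31, 5.46 and 5.44 on their wild types, with no overlap. In the Atxn1 set it had 6.34, 6.38 and 6.48 on the Atxn1 knockout arrays, against 6.42, 6.41 and 6.46 on their wild types, with the groups mixed. Isg20 had 10.97, 10.73, 10.78 and 10.82 on the Atxn1l knockout arrays, against 10.94, 10.82, 10.91 and 10.97 on their wild types, with overlapping groups and the lower mean in the knockouts. Usp18, Parp14 and Rsad2 had differences near 0 with wide errors, 0.05 (SE 0.17), 0.03 (SE 0.21) and -0.05 (SE 0.27).

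Genes upstream of the members were measured on the same arrays. Of 20 interferon ligand genes, 11 were above 0 in the Atxn1l knockout and 6 in the Atxn1 knockout, with medians of 0.01 and -0.05 and none past the adjusted threshold. At an unadjusted p under 0.05 there was 1 higher, Ifna15 at 0.28 (SE 0.11), and 1 lower, Ifna12 at -0.18 (SE 0.06), in the Atxn1l knockout, and 0 in the Atxn1 knockout. Of all probe sets, 4.54% were higher and 3.95% lower by that rule in the Atxn1l knockout, against 0.75% and 0.467% in the Atxn1 knockout. For this list and those below, 51.3% and 47.3% of all probe sets were above 0 in the Atxn1l and Atxn1 knockouts. The 10 receptor and kinase genes had medians of 0.03 and 0.00 in the Atxn1l and Atxn1 knockouts.

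Among 15 genes that lead to interferon production, 12 were above 0 in the Atxn1l knockout and 8 in the Atxn1 knockout, with medians of 0.15 and 0.00. None passed the adjusted threshold, and 6 and 0 had an unadjusted p under 0.05, as did 8.5% and 1.22% of all probe sets in either direction. Tlr9, the endosomal receptor of unmethylated DNA, had 8.66, 8.57, 8.69 and 8.58 on the Atxn1l knockout arrays, against 8.11, 8.31, 8.25 and 8.22 on their wild types. The groups stood well apart, wild type array 4 included, and the change of 0.40 (SE 0.06, limma adjusted p = 0.0607, unadjusted p = 3.15e-05) was the closest to the threshold of any gene on the interferon pathway lists. Irf8, a factor of macrophages and dendritic cells, had 0.28 (SE 0.05, limma adjusted p = 0.192, unadjusted p = 0.000227), and Irf5, which acts below Toll-like receptors, 0.32 (SE 0.07). In the Atxn1 knockout these 3 had -0.0035, 0.09 and 0.05.

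Of 11 negative regulators, 9 and 7 were above 0 in the Atxn1l and Atxn1 knockouts, with medians of 0.12 and 0.05. Socs3, a feedback inhibitor of JAK kinases, had 0.22 (SE 0.07), and Adar, the RNA-editing enzyme that keeps host RNA from the sensors, 0.21 (SE 0.09) in the Atxn1l knockout. A list of 22 further interferon-stimulated genes had 20 and 19 members above 0, with medians of 0.13 and 0.10. At an unadjusted p under 0.05, 8 were higher and 1 lower in the Atxn1l knockout, where 4.54% and 3.95% of all probe sets were. In the Atxn1 knockout 0 had such a p, where 1.22% of all probe sets did. Lgals3bp, a secreted glycoprotein, had 0.66 (SE 0.14) and Slfn8 0.49 (SE 0.12) in the Atxn1l knockout, both without overlap. Of 4 interferon-induced chemokines, which draw T cells, Cxcl9 had 0.80 (SE 0.23) and Cxcl10 0.58 (SE 0.15) there, while Ccl5 had 0.00 (SE 0.07). None of these lists had a member past the adjusted threshold in either comparison.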

How the data were processed

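Total RNA (100 ng per array) from 14 lungs was hybridised to 14 arrays. The authors deposited log2 levels made with RMA, separately for the 8 and the 6 arrays, per the labels' series text, and limma is also named in the submitters' processing notes. Versions and the probe set definition are not given in the sources used here. Each probe set stands for 1 Entrez gene, and symbols came from the platform table and RefSeq (GRCm38.p6).

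For each knockout minus its wild types, lmFit and eBayes of limma 3.58.1 (R 4.3.3) were run without covariates, two-sided, over all 21212 probe sets, with Benjamini-Hochberg adjustment at 0.05. The difference between the knockouts was a contrast in 1 fit of 14 arrays with 4 group means. The fit of each knockout against its own wild types was tested on simulated data, and the fit of 14 arrays was not. The p-values set each mean difference against the spread between these samples, which eBayes moderates over all probe sets. Pair, litter and sex were not in these fits, and the number of arrays limits the precision.

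The members, gene lists and tests were chosen with earlier results of these data known, so no test was made over a list. Values on every array are given for the 8 members of smallest p and the 4 of largest change in each comparison, for the 4 of smallest p for the difference, and for others where a sentence turns on them, chosen after their values were seen. Alternatives were a block for the replicate number, leaving out dim probe sets, a trended robust prior, array weights, 3 normalizations, the Xist level, a joint fit and leaving out each array. Restricting the arrays by Xist was added after seeing the data. Single values of some genes on the pathway lists are not reported here.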

Additional observations from a re-analysis of the deposited data

Results flagged for a closer look

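Within each group of 4 arrays of the Atxn1l set, an array was looked at more closely where its gap to the nearest other array took up more of the group's range than Dixon's critical value for groups of this size. Of 78 such groups of member levels 9 held one, against 5.65% of the same groups over all probe sets (chance flags about 1 in 20). The 78 are not independent, since the members share the same arrays and varied together, so their count is a description. In 7 of them the array was wild type array 4, always as the highest, as in 0.405% of all probe sets. Its log2 level was 9.45 for Ifih1, 7.99 for Ifi205, 10.12 for Trim30a, 9.60 for Parp14, 9.16 for Xaf1, 9.53 for Rtp4 and 9.76 for Ifi44, and the next wild type had 9.04, 7.30, 9.66, 9.01, 8.52, 8.41 and 8.88 for these genes in the same order. The other two were knockout array 4 for Stat2, at 9.62 with the next knockout at 9.51, and wild type array 2 for Mx1, at 5.31 with the next wild type at 5.44. The cause of the high array was not tested.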

How the results depend on the processing

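The members' median kept its sign under every alternative other than the split by Xist in both knockouts, at 0.29 to 0.45 in the Atxn1l knockout and 0.07 to 0.21 in the Atxn1 knockout over the fits without 1 array. Among arrays with low Xist it was 0.64 in the Atxn1l and -0.0081 in the Atxn1 knockout. The count of members with an unadjusted p under 0.05 in the Atxn1l knockout (26) was 18 to 34 over the fits without 1 array and 14 with dim probe sets left out, which removes 13 members from the fit. Of all probe sets 8.5% had such a p with all arrays, 6.65% to 9.54% without 1 array and 12.7% with dim probe sets left out. In the Atxn1 knockout the count of members (5) was 3 to 19 without 1 array, 10 with the trended robust prior, 10 without dim probe sets, 9 after median centring and 2 in the fit of all 14 arrays. Of all probe sets 0.721% to 4.41% were under that p in these fits. Array weights gave 19 (16 higher and 3 lower), but put 19.5% of all probe sets under that p, against 1.22% without weights, and gave wild type array 3, the one with high neutrophil markers, a weight of 6.38 and the other arrays 0.163 to 1.47. Members past the adjusted threshold numbered 0 to 4 without 1 array and 1 (Ifi211) in the fit of all 14 arrays in the Atxn1l knockout, and 0 in the Atxn1 knockout in all fits run. Over all probe sets, the 9 called in the Atxn1l knockout became 2 to 25 without 1 array and 1 without dim probe sets, array weights called 1 in the Atxn1 knockout, and the 2 called for the difference became 1 to 2 without 1 array, 4 with array weights and 1 without dim probe sets. The cause of these shifts was not tested.

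With the replicate number as a block, 2 probe sets were called in the Atxn1l knockout and 1 for the difference. In the Atxn1l and Atxn1 knockouts 30 and 8 members had an unadjusted p under 0.05, as did 10.2% and 1.09% of all probe sets. Without the block there were 26 and 5 members, and 8.5% and 1.22% of all probe sets. No member passed with the block. The smallest limma adjusted p of a member in the Atxn1l knockout was 0.088 with it, against 0.192 without. The deviations of same-numbered arrays correlated at 0.09, 0.04, 0.23 and 0.38 in the Atxn1l set and at 0.00, -0.42 and 0.42 in the Atxn1 set. Those of unlike-numbered arrays ran from -0.24 to 0.25 in the Atxn1l set and from -0.37 to 0.37 in the Atxn1 set. The highest value of the Atxn1l set, 0.38, was that of knockout array 4 and wild type array 4. These values do not settle whether the numbers are pairs, and no label says so. The block was therefore kept as an alternative only.

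The sign of single members turned in some fits. In the Atxn1l knockout, Ifit2 had -0.034 with array weights, -0.0031 after joint quantile normalization and -0.012 after median centring, and over the fits without 1 array the changes ran from -0.051 to 0.058 for Ifit2, -0.053 to 0.012 for Ifi27. In the Atxn1 knockout, array weights gave 0.071 for Oasl1, -0.047 for Eif2ak2, -0.14 for Ifitm3 and -0.15 for Trim30a, cyclic loess gave 0.00075 for Ifi204, and the Xist covariate gave -0.00081 for Eif2ak2 and -0.029 for Ifitm3. Without 1 array they ran from -0.47 to 0.35 for Ifi204, -0.075 to 0.18 for Oas1a, -0.014 to 0.17 for Oas1b, -0.22 to 0.10 for Oas2, -0.035 to 0.14 for Oas3, -0.14 to 0.10 for Oasl1, -0.058 to 0.10 for Eif2ak2, -0.025 to 0.46 for Ifi205, -0.0102 to 0.12 for Ifi35, -0.52 to 0.077 for Ifitm1, -0.0046 to 0.17 for Ifitm3, -0.041 to 0.25 for Trim30a, -0.046 to 0.15 for Mx2, -0.037 to 0.091 for Ifi27.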
